A study of Mus musculus with 18 samples.

Results

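The 41 collagen genes examined here were picked by name from the 55401 genes counted in mouse NIH/3T3 cells, and the list spans fibrillar, network-forming, beaded-filament, fibril-associated, membrane-spanning and multiplexin types. NIH/3T3 is an established fibroblast line of mouse embryo origin. The wild-type (WT) cells were compared with an XPO4 knockout (KO) line of the same cells, in which CRISPR-Cas9 had edited both copies of the gene for Exportin 4, a nuclear transport receptor, in the same way. The labels name no treatment for either genotype. The 6 mRNA-seq libraries (3 WT and 3 KO) gave a count of fragments per gene, and 12 circRNA-seq libraries gave backsplice junction reads from RNA digested with RNase R, an enzyme that degrades linear RNA. The circRNA libraries came from nuclei, cytoplasm and whole cells (total RNA), 2 per genotype and fraction, and 19 of their 16171 listed circRNA positions lay inside 9 of the collagen genes. The KO is a single edited line, so the genotype and the line cannot be told apart.

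Collagens are the main structural proteins of the extracellular matrix, each built from chains that wind into a helix with a repeating Gly-X-Y sequence. Fibroblasts secrete the fibrillar types I, III and V, which assemble into the tensile fibrils of connective tissue, and type VI, which forms beaded filaments around cells. Type IV makes the flexible network of basement membranes, while fibril-associated collagens and multiplexins sit on fibril surfaces and near basement membranes. The chains of a heteromeric type, such as Col1a1 and Col1a2, come from separate genes and must be made together for that molecule to form.

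The mRNA libraries held 16974062 to 22057323 counted fragments and the circRNA libraries 2189 to 4383 (nuclear) or 50341 to 81941 (cytoplasmic and total) junction reads. Inside each mRNA count file the heading named an alignment of the other genotype, whereas sample title and output name were concordant. The titles were followed throughout, and taking the headings instead would turn the sign of every mRNA difference below. Xpo4 itself does not settle this, because its mRNA read 3.08, 2.93 and 2.89 FPKM in WT and 3.72, 2.62 and 3.77 in KO (log2 fold change 0.18 ± 0.11 SE, edgeR adjusted p = 0.193). Without KO replicate 2 it was called higher in the libraries titled KO (0.34, edgeR adjusted p = 0.000252). KO replicate 2 stood apart from its group, with a chi-square per gene of 10.6 and 12.3 against the other KO libraries, where the other replicate pairs gave 3.05 to 4.98. In this library genes in the longest 25% by exonic length sat 0.26 lower than those in the shortest 25%, on a log2 scale relative to the other KO libraries, and 25 of the 29 collagen genes tested lay below the mean of those libraries. The tested collagens are long, with a median of 7464 exonic bases against 3963 for all genes tested. Nothing in the labels says that the replicates were separate cultures, so p-values measure the spread between these libraries. Of 8 fibroblast markers, 7 had a mean level of at least 1 FPKM and none was at 0, although Fap gave 0, 0 and 2 reads in the WT libraries. The labels' extraction text mentions blood, but blood markers summed to at most 0.848 FPKM, with Cd3e and Hbb-bs at 0 in every library. Bone markers summed to 9.65 to 10.4 FPKM and muscle markers to 0.215 to 0.364 over all libraries. Fat markers summed to 0.151 to 0.212 FPKM in WT and 0.988 to 1.05 in KO. Nearly all of the bone sum was Runx2 (mean 9.66 FPKM in WT and 9.31 in KO). The fat sum was mostly Fabp4 (mean 0.146 FPKM in WT and 0.984 in KO), with Cfd at 0 in every library.

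Collagen mRNA was abundant in both genotypes, and its share of all mRNA fragments overlapped between them. The 41 genes together took 1.37, 1.29 and 1.33% of counted fragments in WT and 1.46, 1.28 and 1.39% in KO, with the lowest and the highest share both in KO libraries. Type I alone supplied 57.7, 57.5 and 58.5% of the collagen fragments in WT and 55.0, 54.7 and 53.9% in KO. Levels are given as FPKM, the fragments per 1000 exonic bases and 1000000 counted fragments, with the exons of all of a gene's transcripts merged. In WT cells the order on this scale was led by Col1a1 at 510.4 ± 18.0 FPKM (SD, n = 3), then Col1a2 at 349 ± 11.6, Col6a1 at 231, Col16a1 at 93.3, Col6a3 at 92.8 and Col6a2 at 70.5. Col16a1 and Col6a3, neighbours in that order, did not differ beyond their spread. In KO cells Col1a1 at 405 ± 39.1 and Col1a2 at 390 ± 22.1 FPKM overlapped, and Col6a1 followed at 357. The order depends on the length used. Per base of the longest coding transcript, Col1a2 stood above Col1a1 in every library, at 812 against 565 FPKM in WT and 906 against 448 in KO, and the WT mean of Col6a2 (126 FPKM) passed that of Col16a1 (121), with overlapping libraries. At the other end, 4 members (Col9a1, Col13a1, Col19a1 and Col26a1) had no read in any library and 12 in all were too low to test, none of these reaching more than 17 reads in a library.

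**Figure D1:**
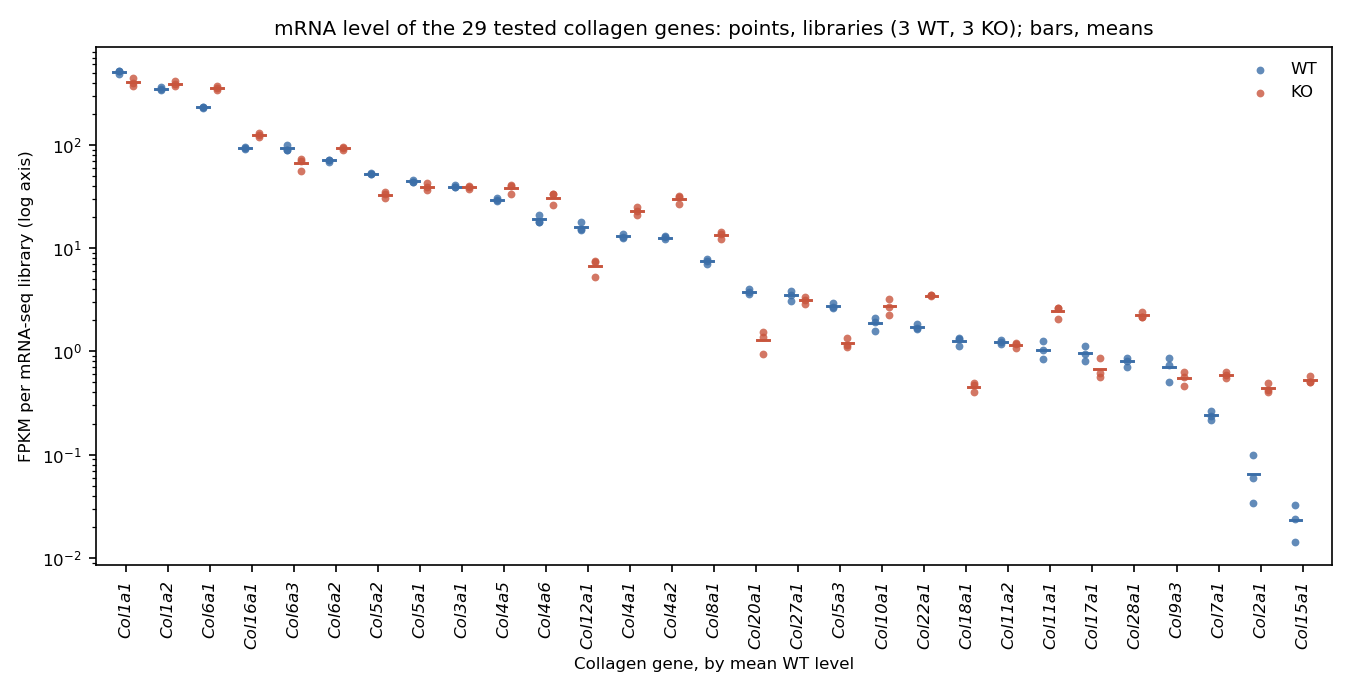
FPKM (log axis) of the 29 tested collagen genes in each mRNA-seq library, ordered by mean WT level; points are 3 WT (blue) and 3 KO (red) libraries and short bars are means. Levels ran from 510.4 FPKM for Col1a1 to 0.0234 for Col15a1 in WT, and the red points lay above the blue ones for most, but not all, genes.

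The mRNA level of most tested collagens differed between the libraries labelled KO and WT. With edgeR's quasi-likelihood test and Benjamini-Hochberg adjustment over all 14688 genes tested, 16 of the 29 tested collagens were higher in KO, 8 were lower and 5 were not called. Over all genes 25.1% were called higher and 23.6% lower, so a call by itself was common, and the members' shares were 55.2% and 27.6%. The median log2 fold change of the tested members was 0.37, beside -0.0029 over all genes tested. In 24 of the 29 members, the same number as were called, the WT and KO libraries did not overlap. The share over all genes tested was not computed, so this count is a description only. Without KO replicate 2 the counts were 16 higher and 9 lower. Calls with a change of at least 2-fold were seen for 11 members, 7 higher (Col15a1, Col2a1, Col28a1, Col7a1, Col4a2, Col11a1 and Col22a1) and 4 lower (Col20a1, Col18a1, Col12a1 and Col5a3). Over all genes tested 4.27% were called and at least 2-fold higher and 5.34% called and at least 2-fold lower. In bulk RNA, fewer cells making a transcript and less of it per cell cannot be told apart.

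**Figure D2:**
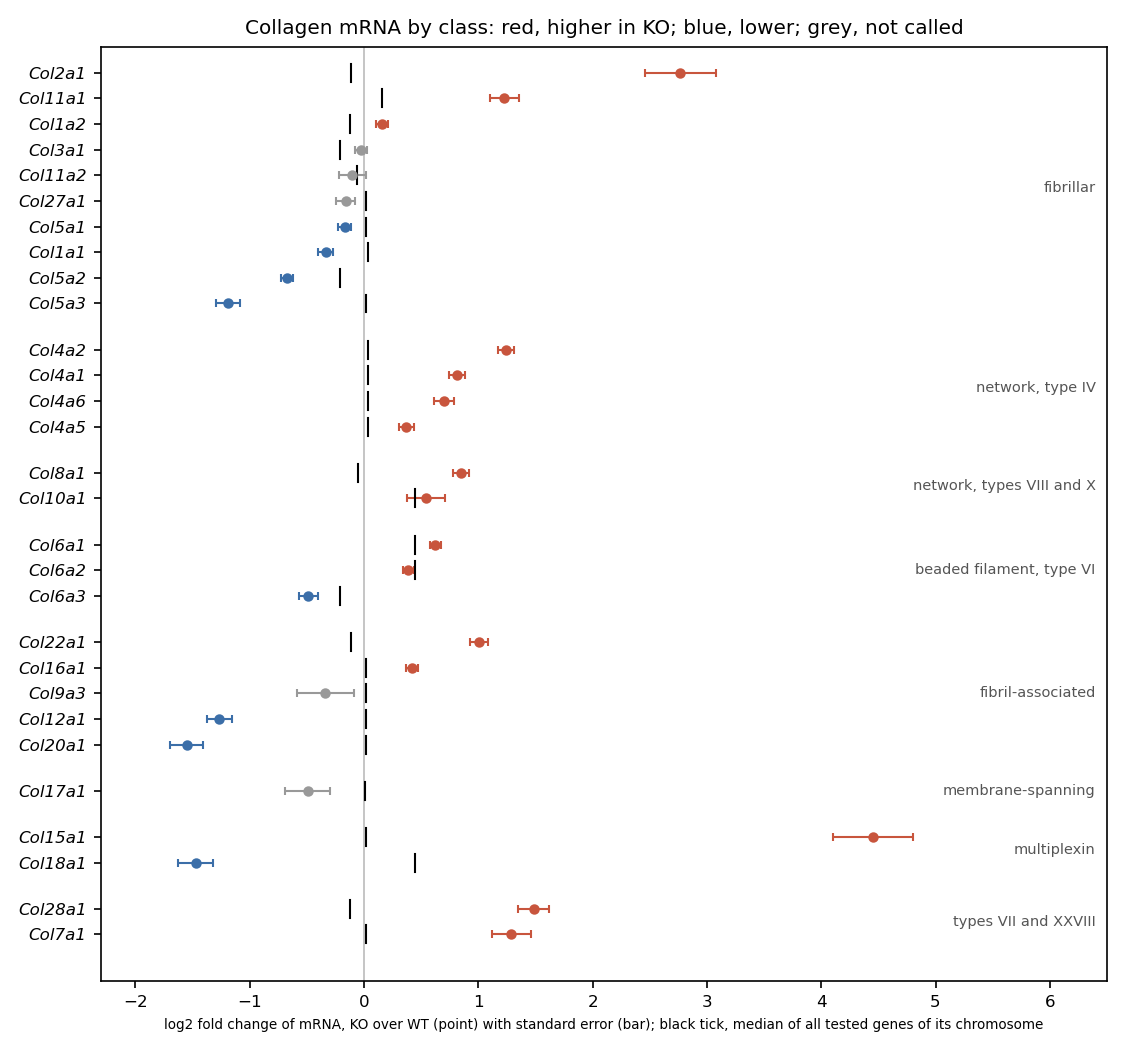
log2 fold change of mRNA (KO over WT) with its standard error for the 29 tested collagen genes, grouped by class; red points were higher in KO, blue lower and grey not called, and black ticks mark the median of all tested genes on the same chromosome. All 4 tested type IV chains lie to the right of 0, whereas the fibrillar class spans both sides.

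Among the fibrillar collagens, 3 of the 10 tested genes were higher and 4 lower in KO. These shares of 30% and 40% stand beside 25.1% and 23.6% over all genes tested. Col1a1 (ENSMUSG00000001506, GRCm38 chr11:94936224-94953042), the chain present in larger number in type I collagen, read 524, 490 and 518 FPKM in WT and 446, 368 and 401 in KO. Every KO library lay below every WT library, and the difference of -0.34 ± 0.06 (log2 fold change ± SE) had an adjusted p of 0.000676 in edgeR. Its partner Col1a2 (ENSMUSG00000029661, chr6:4504814-4541544) went the other way, at 360, 337 and 351 FPKM in WT and 412, 368 and 390 in KO. That rise was slight (0.16 ± 0.05, edgeR adjusted p = 0.0240), and it was lost without WT replicate 2 (adjusted p = 0.126), WT replicate 3 (0.0858) or KO replicate 1 (0.0854). Col3a1, which co-assembles with type I in many tissues, was level at 40.5, 38.6 and 38.6 FPKM in WT and 40.1, 37.2 and 38.8 in KO, with overlapping libraries (-0.02 ± 0.05, edgeR adjusted p = 0.728).

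Type V collagen, which is incorporated into type I fibrils and limits their diameter, was lower through all 3 of its listed chains. Col5a2 read 53.9, 52.1 and 51.8 FPKM in WT against 34.8, 30.8 and 33.5 in KO, without overlap (-0.67 ± 0.06, edgeR adjusted p = 4.6e-07). It lies on chromosome 1, where the median of 885 tested genes was -0.21. Col5a3 read 2.91, 2.66 and 2.66 FPKM in WT and 1.34, 1.10 and 1.16 in KO, a 2.29-fold drop (edgeR adjusted p = 9.95e-07). Col5a1 fell least, from 45.1, 43.9 and 43.6 FPKM to 42.4, 36.2 and 39.4 (-0.17 ± 0.06, edgeR adjusted p = 0.0299). Its call was lost in 4 of the 6 fits that left out a library, those without WT replicate 1 (adjusted p = 0.0957), 2 (0.0781) or 3 (0.0739) or KO replicate 3 (0.0694).

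The fibrillar collagens best known from cartilage were scarce in these cells. Col2a1, the type II chain, gave 11, 18 and 7 fragments in WT and 66, 70 and 77 in KO, or 0.0598, 0.0997 and 0.0343 against 0.401, 0.423 and 0.491 FPKM. The KO libraries were all higher (2.77 ± 0.31, edgeR adjusted p = 7.81e-06), though at a level far under that of type I. Col11a1, a type XI chain, rose from 1.25, 1.02 and 0.850 FPKM to 2.63, 2.06 and 2.60 (1.23 ± 0.13, edgeR adjusted p = 4.39e-06). Col11a2 (1.24, 1.29 and 1.18 against 1.18, 1.07 and 1.21 FPKM) and Col27a1 (3.83, 3.06 and 3.53 against 3.35, 2.87 and 3.12) overlapped between genotypes and were not called, with edgeR adjusted p-values of 0.501 and 0.137. Beside these genes, the summed cartilage markers were lower in KO (61.2 to 66.1 FPKM) than in WT (77.9 to 81.2). Nearly all of that sum was Sox9, while Hapln1 was at 0 in every library, and its part in these results was not tested.

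All 4 tested chains of type IV collagen were higher in KO, as were 25.1% of all genes tested. Col4a2 (ENSMUSG00000031503, chr8:11312805-11449287) read 12.1, 12.7 and 13.1 FPKM in WT and 31.9, 26.7 and 31.2 in KO, a 2.36-fold difference (1.24 ± 0.07, edgeR adjusted p = 9.95e-09). Col4a1 (ENSMUSG00000031502, chr8:11198423-11312826), which pairs with it in the main basement membrane network, read 13.6, 12.5 and 12.9 FPKM in WT and 24.8, 20.9 and 23.1 in KO (0.81 ± 0.07, edgeR adjusted p = 3.93e-07). For both genes the lowest KO library was well above the highest WT library. The X-linked chains Col4a5 and Col4a6, which share a molecule in some basement membranes, were higher too. Col4a6 went from 21.0, 18.0 and 18.1 FPKM to 33.3, 26.2 and 33.1 (0.70 ± 0.09, edgeR adjusted p = 2.16e-05). Col4a5 went from 30.4, 29.1 and 28.8 FPKM to 40.2, 33.5 and 40.8 (0.37 ± 0.07, edgeR adjusted p = 0.000608). The kidney-type chains Col4a3 and Col4a4 stayed under the test's minimum, with 23 and 22 fragments over the 3 WT libraries and 8 and 22 over the KO libraries. Endothelial markers, whose cells also lay down basement membrane, summed to no more than 0.244 FPKM in any library.

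Col4a1 and Col4a2 are transcribed away from each other from start sites 21 bp apart in RefSeq (GRCm38.p6), and the annotated genes overlap by 22 bases. Their promoter windows, 250 bases before to 50 after the start site, are shown because both genes of the pair rose in KO, and the window of Col1a2 is shown as the type I gene that has an entry. Capitals mark the letters CCAAT (a common upstream box), TATAAA (a core promoter box), GGGCGG (a box bound by Sp1 family factors) and TGACTCA (AP-1 site) on either strand, and the windows lie at chr8:11312777-11313076 (minus strand), chr8:11312555-11312854 (plus strand) and chr6:4505368-4505667 (plus strand).
Col4a1: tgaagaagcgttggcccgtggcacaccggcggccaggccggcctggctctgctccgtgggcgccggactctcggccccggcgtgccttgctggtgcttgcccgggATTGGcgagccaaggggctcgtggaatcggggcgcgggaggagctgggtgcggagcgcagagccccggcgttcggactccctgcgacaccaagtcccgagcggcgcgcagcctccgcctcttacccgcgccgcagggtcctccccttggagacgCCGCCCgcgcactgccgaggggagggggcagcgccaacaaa
Col4a2: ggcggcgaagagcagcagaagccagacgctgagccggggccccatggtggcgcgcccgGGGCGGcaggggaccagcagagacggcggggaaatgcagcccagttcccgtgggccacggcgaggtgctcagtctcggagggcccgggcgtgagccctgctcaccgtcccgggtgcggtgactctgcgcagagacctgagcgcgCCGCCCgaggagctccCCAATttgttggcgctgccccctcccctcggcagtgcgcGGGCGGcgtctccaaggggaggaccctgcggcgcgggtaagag
Col1a2: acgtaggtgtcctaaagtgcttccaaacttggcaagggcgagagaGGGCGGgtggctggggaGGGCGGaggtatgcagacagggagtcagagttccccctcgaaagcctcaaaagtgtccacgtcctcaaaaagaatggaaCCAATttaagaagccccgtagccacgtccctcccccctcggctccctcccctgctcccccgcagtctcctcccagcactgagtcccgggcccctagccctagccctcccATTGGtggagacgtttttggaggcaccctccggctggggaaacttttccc
The CCAAT letters were present in all 3 of these windows, as they were in 37.4% of all 32851 promoters of this length, and GGGCGG was present in all 3 against 35.7% of promoters. The windows of Col4a1 and Col4a2 overlap, and the only GGGCGG match of Col4a1 is a genomic site that is also counted for Col4a2. Over the 35 promoter windows found for 32 of the 41 collagen genes, 34.3% held CCAAT, 57.1% held GGGCGG, 14.3% held TATAAA and 2.86% held TGACTCA. The shares of TATAAA and TGACTCA over all promoters were 13.6% and 5.20%. These are matches of letters and not shown binding sites.

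Type VI collagen, whose 3 listed chains form its monomer, was split. Col6a1 read 235, 229 and 230 FPKM in WT and 375, 340 and 356 in KO (0.62 ± 0.05, edgeR adjusted p = 3.93e-07), and Col6a2 read 71.3, 68.6 and 71.8 against 95.5, 89.4 and 92.4 (0.39 ± 0.05, edgeR adjusted p = 3.11e-05). Col6a3, the longest chain, fell from 99.5, 89.1 and 89.9 FPKM to 70.3, 56.0 and 72.8 (-0.49 ± 0.08, edgeR adjusted p = 0.000285). No WT library overlapped a KO library for any of the 3 genes. Col6a1 and Col6a2 lie on chromosome 10, where the median of 689 tested genes was 0.45, and Col6a3 lies on chromosome 1 with its median of -0.21. The part of those chromosome-wide shifts in the 3 differences was not tested.

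In the short-chain network collagens, Col8a1 went from 7.90, 7.45 and 6.95 FPKM in WT to 13.7, 12.2 and 14.3 in KO (0.85 ± 0.07, edgeR adjusted p = 4.41e-07). Col10a1, a mark of hypertrophic cartilage and also on chromosome 10, read 1.56, 2.13 and 1.94 FPKM against 3.24, 2.69 and 2.26. Its groups were close to touching (0.54 ± 0.16, edgeR adjusted p = 0.0149), and the call was lost without WT replicate 1 (adjusted p = 0.0655) or KO replicate 1 (0.0796). Col8a2, the partner of Col8a1, was at 5, 9 and 11 fragments in WT and 0, 1 and 3 in KO and was not tested.

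The fibril-associated collagens, which bind the surface of fibrils, moved apart. Col16a1, the most abundant of them, read 95.3, 92.6 and 92.0 FPKM in WT and 131, 120 and 124 in KO (0.42 ± 0.05, edgeR adjusted p = 1.71e-05). Col22a1, known from tissue junctions such as that of muscle and tendon, rose in level from 1.63, 1.86 and 1.67 FPKM to 3.40, 3.48 and 3.48 (1.01 ± 0.08, edgeR adjusted p = 3.24e-07). In the opposite direction, Col12a1, a large collagen of type I fibril surfaces, fell 2.41-fold from 17.8, 15.4 and 15.0 FPKM to 7.29, 5.25 and 7.51 (-1.27 ± 0.11, edgeR adjusted p = 6.5e-07). Col20a1 fell 2.94-fold, from 3.73, 4.03 and 3.61 FPKM to 1.55, 0.944 and 1.39 (-1.55 ± 0.14, edgeR adjusted p = 1.26e-06). For these 4 genes the libraries of the genotypes did not overlap. Col9a3, a chain of cartilage type IX, overlapped at 0.861, 0.505 and 0.741 FPKM against 0.466, 0.637 and 0.566 (edgeR adjusted p = 0.283). Its exons share 6.07% of their bases with Tcfl5, and fragments that overlapped more than 1 gene were not counted.

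The multiplexins Col15a1 and Col18a1, proteoglycan-type collagens of the basement membrane zone, gave the largest opposed pair among the classes. Col15a1 (chr4:47208161-47313167) was almost absent from WT, with 3, 4 and 2 fragments, and present at 65, 57 and 55 fragments in KO (0.574, 0.501 and 0.510 FPKM). Pooled over libraries, 177 KO fragments against 9 WT fragments gave a depth-scaled ratio of 22.9 (exact 95% interval 11.8 to 51.0, counting error only), and the fit gave 4.45 ± 0.35 (edgeR adjusted p = 2.97e-07). Col18a1 (chr10:77052178-77166548), the source of the endostatin fragment, fell 2.78-fold from 1.34, 1.14 and 1.30 FPKM to 0.400, 0.469 and 0.495 (-1.47 ± 0.15, edgeR adjusted p = 4.05e-06). It did so on a chromosome whose median was 0.45.

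Of the remaining types, Col7a1, the anchoring fibril collagen, went from 0.215, 0.239 and 0.264 FPKM to 0.627, 0.553 and 0.584 (1.29 ± 0.17, edgeR adjusted p = 3.59e-05). Col28a1 went from 0.872, 0.710 and 0.814 FPKM to 2.41, 2.16 and 2.14 (1.48 ± 0.14, edgeR adjusted p = 1.27e-06). Both had all KO libraries above all WT libraries. Col17a1, the hemidesmosome collagen of epithelia and the only membrane-spanning member that could be tested, overlapped at 1.13, 0.937 and 0.799 against 0.616, 0.854 and 0.559 FPKM (-0.49 ± 0.20, edgeR adjusted p = 0.0541). The epithelial markers summed to 2.62 to 2.96 FPKM in WT and 0.298 to 0.674 in KO, nearly all of it Krt14, with Epcam at 0 in every library, and their part in the Col17a1 and Col7a1 values was not tested. Among the untested members, Col24a1 gave 12, 6 and 10 fragments in WT and 0, 0 and 1 in KO. The depth-scaled WT over KO ratio of its summed fragments was 24.0, with an exact 95% interval of 3.97 to 982 that covers counting error only. The other untested members with any read were Col9a2, Col14a1, Col23a1 and Col25a1, at 0 to 17 fragments in a library.

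Because partner chains share a molecule, their ratio was computed within each library. All 6 ratios that could be formed separated the genotypes without overlap, and the exact permutation test (two-sided, 3 against 3) gave p = 0.1 for each, the smallest value this design allows, as did the Benjamini-Hochberg adjusted p = 0.1 over the 6 pairs. The Col1a1/Col1a2 ratio of FPKM was 1.45, 1.45 and 1.48 in WT and 1.08, 1.00 and 1.03 in KO. The Col5a1/Col5a2 ratio was 0.838, 0.842 and 0.843 in WT and 1.22, 1.17 and 1.18 in KO. The Col6a3/Col6a1 ratio moved furthest, from 0.424, 0.390 and 0.391 to 0.188, 0.165 and 0.204, or -1.12 on the log2 scale. These genes lie on chromosomes 1 and 10, whose medians were -0.21 and 0.45, and the part of those medians in the ratio was not tested. In type IV, Col4a1/Col4a2 went from a mean of 1.03 ± 0.0775 (SD, n = 3) to 0.766 ± 0.0220, and Col4a5/Col4a6 from 1.55 ± 0.0934 to 1.24 ± 0.0368. Col6a1/Col6a2 was the smallest shift, from 3.28 ± 0.0649 to 3.86 ± 0.0601. Ratios of gene pairs outside the collagens were not computed for comparison. The absolute ratios depend on the length assigned to each gene: by the longest coding transcript the WT mean of Col1a1/Col1a2 was 0.696, and the shift between genotypes was unaffected by construction.

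**Figure D3:**
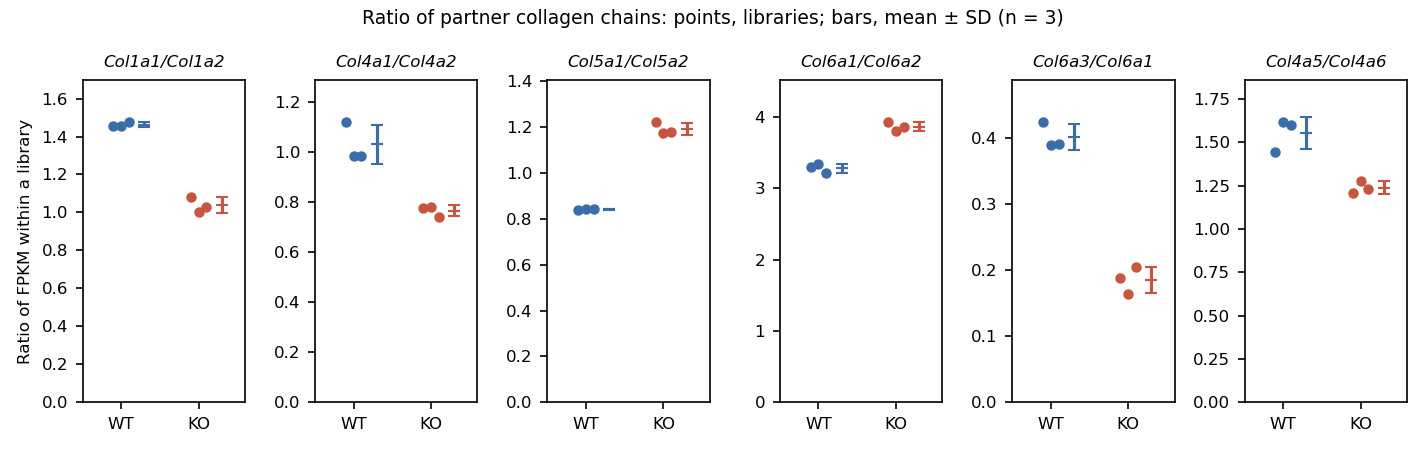
Ratio of FPKM of partner collagen chains within each mRNA-seq library for 6 pairs (linear axes from 0); points are 3 WT (blue) and 3 KO (red) libraries, with mean ± SD beside them. The genotypes do not overlap in any panel, with Col6a3/Col6a1 falling from a mean of 0.401 to 0.186 and Col5a1/Col5a2 rising from 0.841 to 1.19.

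Genes that fold, process, crosslink and bind collagen also differed. Of 48 listed genes 39 were tested, with 15 higher and 11 lower in KO, against the 25.1% and 23.6% of all genes named above. In folding and modification 7 of 17 tested genes were higher and 2 lower. Crtap, part of the prolyl 3-hydroxylation complex, read 35.7, 35.9 and 39.3 FPKM in WT and 89.8, 97.6 and 86.2 in KO (1.30 ± 0.07, edgeR adjusted p = 5.01e-09). P4ha1, a catalytic subunit of prolyl 4-hydroxylase, rose by 0.61 ± 0.06 (edgeR adjusted p = 1.4e-06). Serpinh1, the collagen chaperone HSP47, was level at 216.6 ± 6.53 FPKM in WT and 222 ± 12.0 in KO (SD, n = 3, edgeR adjusted p = 0.624).

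In processing and crosslinking 4 of 8 tested genes were higher and 2 lower, and Lox, which crosslinks collagen and elastin, rose from 357 ± 9.78 to 409 ± 21.8 FPKM (0.19 ± 0.05, edgeR adjusted p = 0.00712, lost without WT replicate 3 at 0.0543). The partners of the fibril were mostly lower, at 5 of 8 tested genes against 2 higher. One of the lower calls, Fn1 (fibronectin, -0.21 ± 0.08, edgeR adjusted p = 0.0362), was lost without WT replicate 1 (adjusted p = 0.137), 2 (0.0610) or 3 (0.0755). Dcn (decorin) fell 3.42-fold from 87.6, 89.9 and 91.6 FPKM to 24.7, 26.4 and 27.6 (-1.78 ± 0.06, edgeR adjusted p = 6.84e-11), and Lum (lumican) fell 2.99-fold from 16.5, 15.1 and 14.8 FPKM to 5.36, 5.36 and 4.79 (edgeR adjusted p = 6.07e-09). Both belong to the small leucine-rich proteoglycans that bind fibrils, as does Fmod (fibromodulin), which fell 5.30-fold from a mean of 2.77 to 0.521 FPKM (edgeR adjusted p = 8.84e-08). Tnxb, a tenascin that bridges fibrils, fell 3.73-fold from a mean of 5.47 to 1.47 FPKM (edgeR adjusted p = 1.28e-09). Sparc, which binds collagen in the matrix, was 263 ± 3.21 FPKM in WT and 292 ± 3.72 in KO (0.15 ± 0.05, edgeR adjusted p = 0.0171). That call was lost without WT replicate 1 (adjusted p = 0.05001), 2 (0.0792) or 3 (0.0697). Among collagen receptors and uptake genes, 2 of 6 tested genes were higher and 2 lower. The lower call of Ddr2 (edgeR adjusted p = 0.0438) was lost with library totals in place of TMM scaling (0.0520). It was also lost without WT replicate 1, 2 or 3 or KO replicate 1. Beside the counts of these lists, 25.1% of all genes tested were called higher and 23.6% lower.

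**Figure D4:**
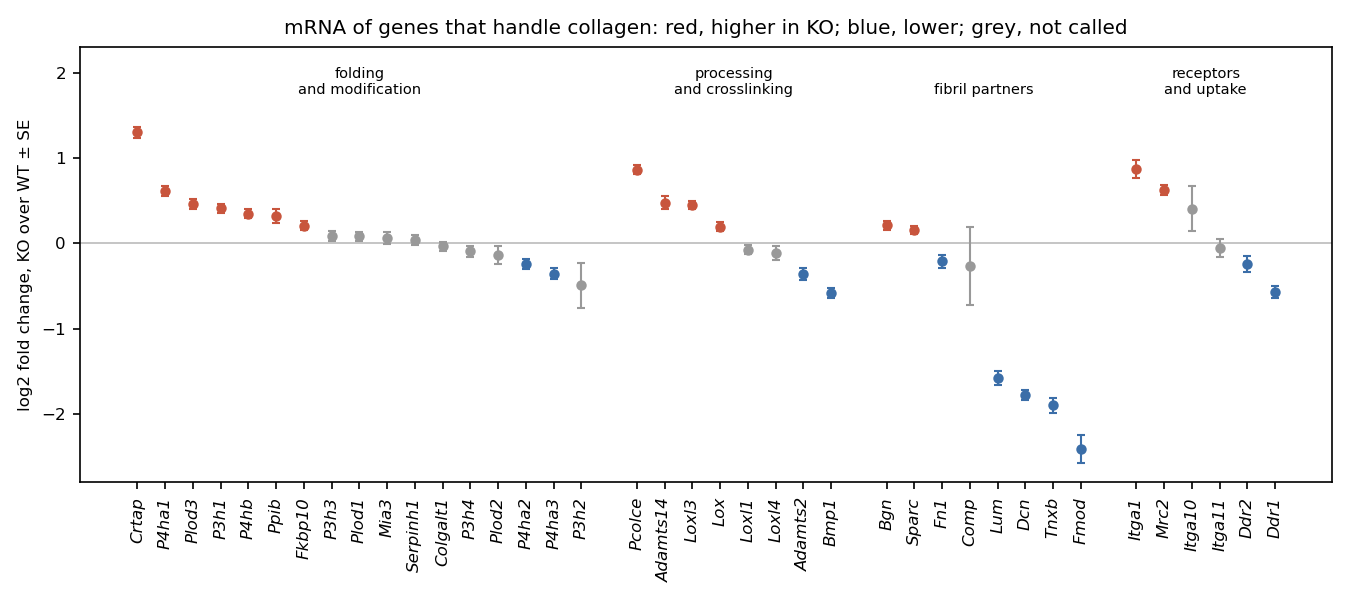
log2 fold change of mRNA (KO over WT) ± SE for the 39 tested genes that handle collagen, in 4 lists; red points were higher in KO, blue lower and grey not called. Crtap stands at 1.30 among the folding genes, while Lum, Dcn, Tnxb and Fmod lie between -1.58 and -2.41 among the fibril partners.

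CircRNAs are closed RNA rings made when a splice donor joins an upstream acceptor, and the joined ends, the backsplice junction, identify each ring. The files gave 19 positions inside collagen genes, of which 18 had both ends on annotated exon edges, all within coding sequence. They came from Col5a1 and Col4a5 (4 each), Col4a2 (3), Col1a2 and Col11a1 (2 each), and Col3a1, Col5a2, Col6a3 and Col12a1 (1 each). Of the 10 most highly expressed collagens 6 had a listed circRNA, and Col1a1, Col6a1, Col16a1 and Col6a2 had none listed. Col11a1 at 1.04 FPKM in WT had 2. The share of other genes at similar levels with a listed circRNA was not computed. The files carry no strand, so the strand shown is that of the gene. Collagen circRNAs took 0.0688 to 0.347% of the junction reads of a library. Below are the junctions of the 5 circRNAs called in the cytoplasm and of the 3 nearest to the threshold in total RNA, with the last 20 nt of the downstream exon in lower case and the first 20 nt of the upstream exon, across the junction, in capitals (GRCm38.p6, gene strand).
circCol3a1: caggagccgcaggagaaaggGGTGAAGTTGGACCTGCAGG
circCol5a1-2: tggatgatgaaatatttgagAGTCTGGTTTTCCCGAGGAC
circCol4a2-3: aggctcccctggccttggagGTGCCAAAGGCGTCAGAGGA
circCol5a1-4: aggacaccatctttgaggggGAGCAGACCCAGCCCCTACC
circCol4a5-2: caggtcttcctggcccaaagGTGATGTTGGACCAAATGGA
circCol5a1-3: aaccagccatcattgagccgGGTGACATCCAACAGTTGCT
circCol11a1-1: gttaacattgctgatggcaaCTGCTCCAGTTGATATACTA
circCol4a5-4: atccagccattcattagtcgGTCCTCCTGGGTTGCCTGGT
The exons joined were 16 to 20 for circCol3a1 (chr1:45331106-45332242), 3 to 4 for circCol5a1-2 (chr2:27928042-27929541), 28 to 30 for circCol4a2-3 (chr8:11427553-11431401), 7 to 8 for circCol5a1-4 (chr2:27951287-27952446) and 30 to 36 for circCol4a5-2 (chrX:141626831-141639275). In total RNA they were 5 to 9 for circCol5a1-3 (chr2:27949627-27953025), 2 to 3 for circCol11a1-1 (chr3:114055595-114061577) and 47 to 50 for circCol4a5-4 (chrX:141673275-141683719). The upstream exon of circCol11a1-1 also opens circCol11a1-2, and circCol5a1-1 and circCol5a1-2 end on the same exon, so these share a splice site. Spliced lengths ran from 99 to 1611 nt with a median of 418, and 61.1% of the 18 (11) were a multiple of 3, beside 37.3% of 15408 other exon-edge circRNAs. A multiple of 9 was found for 27.8% (5) against 12.9%. These shares are given as a description, and circRNAs of the same gene share exons.

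Each fraction's lists held only positions seen in 2 or more of its 4 libraries, so a circRNA missing from a fraction is unlisted there and was not shown to be absent. Of the 19, 6 were listed in cytoplasm alone, 5 in total RNA alone, 5 in both, 2 in the nucleus alone, and 1 in the nucleus and total RNA.

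In the cytoplasm 9 of the 11 listed collagen circRNAs reached the 10 reads needed for the test. With edgeR 3 were called higher and 2 lower in KO. Among all 8917 circRNAs tested 30.0% were higher and 23.5% lower, so the members' shares of 33.3% and 22.2% were near that background. Each called circRNA reached 10 reads only through the genotype where it was higher. How this filter bears on the calls and on the background shares was not tested. circCol3a1 gave 0 and 2 reads in the WT libraries and 18 and 13 in the KO ones, a depth-scaled ratio of 21.7 (exact 95% interval 5.53 to 187, edgeR adjusted p = 0.000174). The linear Col3a1 mRNA was not called. circCol5a1-2 gave 1 and 0 reads against 4 and 7 (ratio 15.4, interval 2.24 to 664, edgeR adjusted p = 0.00194), and circCol4a2-3 gave 2 and 1 against 9 and 7 (ratio 7.48, interval 2.14 to 40.0, edgeR adjusted p = 0.00133). In these 3 the KO libraries were above both WT libraries.

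Lower in the KO cytoplasm were circCol5a1-4 and circCol4a5-2. circCol5a1-4 gave 18 and 13 reads in the WT libraries and 0 and 1 in the KO ones, a WT over KO ratio of 22.1 (exact 95% interval 3.69 to 901, edgeR adjusted p = 0.0004295). circCol4a5-2 gave 10 and 8 reads in WT and none in either KO library, so it was at least 4.28-fold lower against a floor of 3 reads over the KO group (edgeR adjusted p = 0.000739). The exact 95% interval of the same WT over KO ratio starts lower, at 3.14. Opposite calls thus fell on 2 circRNAs of the same gene, since circCol5a1-2 and circCol5a1-4 both come from Col5a1. DESeq2 called only circCol3a1, and without WT replicate 2 the edgeR calls of circCol5a1-2 (adjusted p = 0.0819) and circCol4a2-3 (0.0876) were lost. With no scaling the calls of circCol3a1 (adjusted p = 0.0526) and circCol5a1-2 (0.0762) were lost. The other 4 tested circRNAs were not called: circCol5a1-1 at 15 and 14 against 10 and 32 reads, circCol11a1-2 at 6 and 3 against 0 and 1, circCol1a2-2 at 6 and 6 against 1 and 2, and circCol6a3 at 4 and 5 against 1 and 2. Their edgeR adjusted p-values were 0.175, 0.0548, 0.130 and 0.318. circCol11a1-2 was called lower with library totals in place of TMM scaling (adjusted p = 0.0470) and with no filter (0.0494), and circCol5a1-1 was called higher without KO replicate 1 (log2 fold change 2.09 against 1.03, adjusted p = 0.0255). circCol5a1-3, at 2 and 4 against 1 and 1 reads, was too low to test in this fraction.

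**Figure D5:**
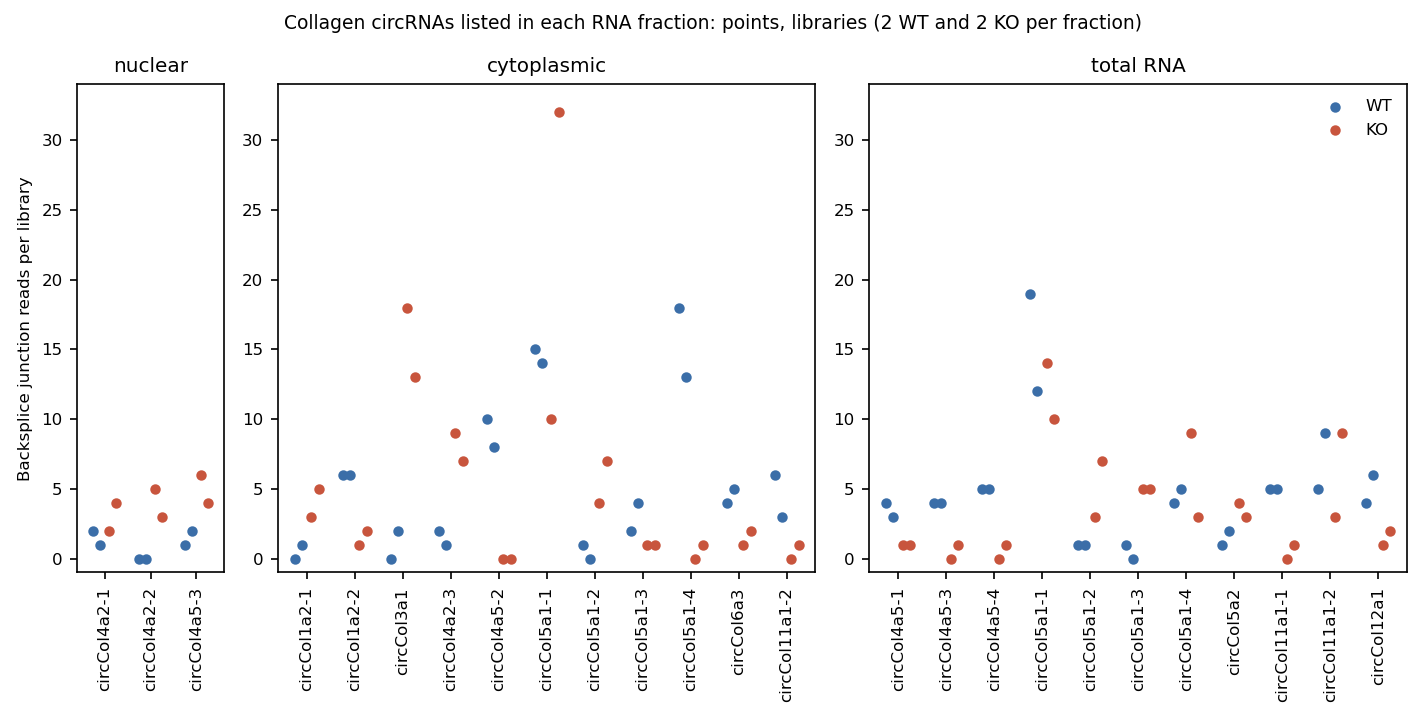
Backsplice junction reads of each listed collagen circRNA in each library, by RNA fraction (linear axis); blue points are 2 WT and red points 2 KO libraries. In the cytoplasm circCol3a1 rises from 0 and 2 to 18 and 13 reads while circCol5a1-4 falls from 18 and 13 to 0 and 1, and no collagen circRNA exceeds 6 reads in a nuclear library.

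In total RNA 9 collagen circRNAs were tested with edgeR and none was called. Over all 8903 tested none was called either (0.0% in each direction), with 3405 at an unadjusted p under 0.05, of which 4 were collagen circRNAs, and DESeq2 called no collagen circRNA. This count depended on the setting, since library totals in place of TMM scaling called 995 circRNAs higher and 1008 lower. A block for the replicate number called 996 and 1058, although same-numbered libraries did not deviate together. Each of these 2 fits called circCol5a1-3 higher and circCol11a1-1 and circCol4a5-4 lower. circCol5a1-3 gave 1 and 0 reads in the WT libraries and 5 and 5 in the KO ones, circCol11a1-1 gave 5 and 5 against 0 and 1, and circCol4a5-4 also gave 5 and 5 against 0 and 1. These 3 had an edgeR adjusted p of 0.0580 each, and their ranges did not overlap. Each of them reached the 10 reads needed for the test only through the genotype where it was higher. How this filter bears on their p-values and on the lack of overlap was not tested. The next, circCol5a1-2, gave 1 and 1 reads in the WT libraries and 3 and 7 in the KO ones (edgeR adjusted p = 0.0841). The linear mRNAs of Col11a1 and Col4a5 were higher in the libraries titled KO, while circCol11a1-1 and circCol4a5-4 had fewer reads there. With the headings inside the count files in place of the titles, both mRNAs would be lower in KO as well. circCol5a1-1 gave the most reads of any member in this fraction, at 19 and 12 in WT and 14 and 10 in KO, and overlapped. circCol5a1-4 (4 and 5 against 9 and 3) and circCol11a1-2 (5 and 9 against 3 and 9) overlapped as well. circCol12a1 (4 and 6 against 1 and 2) and circCol5a2 (1 and 2 against 4 and 3) did not overlap and were not called, with edgeR adjusted p-values of 0.132 and 0.300. In simulated total RNA data the test recovered 8% of 4-fold and 42% of 8-fold changes. A missing call in this fraction therefore does not show equal levels.

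The nuclear libraries were too shallow to describe collagen circRNAs closely. Only circCol4a5-3 reached 10 reads, at 1 and 2 in WT and 6 and 4 in KO (depth-scaled ratio 1.98, exact 95% interval 0.510 to 11.2, edgeR adjusted p = 0.574), and 0 of 1 was called, with none at an unadjusted p under 0.05 and none by DESeq2. Of all 651 nuclear circRNAs tested 1.69% were called higher and 8.45% lower, although their median log2 fold change was 0.44. With no scaling, and with DESeq2, none was called in either direction. The KO nuclear libraries held 3743 and 4383 junction reads against 2189 and 2635 in WT, a difference that scaling to library size takes out. In total RNA circCol4a5-3 gave 4 and 4 reads in the WT libraries and 0 and 1 in the KO ones. The other 2 nuclear positions both lie in Col4a2, where 1 is off the annotated exon edges, and 4 of the 19 collagen circRNAs (circCol1a2-1, circCol4a2-1, circCol4a2-2 and circCol4a5-1) had under 10 reads over all 12 libraries.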

How the data were processed

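CircRNA-seq (12 libraries) and mRNA-seq (6 libraries) of NIH/3T3 cells were grouped by genotype and fraction as given in the sample titles. The collagen genes, the lists of related genes and the markers were chosen with earlier results of these data known.

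For mRNA, the authors aligned reads with HISAT2 to mm10 and deposited raw fragment counts per gene from featureCounts (version 2.0.0), counted by exon without a strand setting, so antisense overlaps cannot be told apart. For circRNA, the authors deposited backsplice junction read counts from find_circ, unnormalized and without strand, so circRNAs were assigned to genes by position alone and a circRNA of the opposite strand would not be told apart. Per the methods, circRNAs found in both replicates were merged, and no other filter before deposition is given in the sources used here. Symbols were matched by gene ID without its version for 55141 of 55401 genes. CircRNA starts were read as counted from 0, since 15698 of 16164 then fell on exon starts.

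The quasi-likelihood test of edgeR 4.0.16 (under R 4.3.3) was fitted to all genes that passed filterByExpr and, per fraction, to all circRNAs with at least 10 summed reads, with TMM scaling and unlisted circRNAs as 0, with Benjamini-Hochberg adjustment over every feature tested and a threshold of 0.05. The count models were tested first on simulated data with an assumed spread between libraries. For mRNA, 95% of 1.5-fold and 100% of 2-fold changes were recovered. For circRNAs, 4-fold changes were recovered in 23% (nuclear), 20% (cytoplasmic) and 8% (total RNA) of cases, and 8-fold changes in 51%, 49% and 42%. A circRNA that was not called was thus not shown to be equal. FPKM used the featureCounts exon length and the library's counted fragments. Chain ratios needed 10 reads per chain in each library and were compared by two-sided exact permutation over libraries. Intervals of summed reads were exact conditional binomial (95%). No molecular identifiers are named, so intervals and floors cover counting error alone. Sequences and promoters came from RefSeq and the GRCm38.p6 genome, and exon numbers from GENCODE basic transcripts. All collagens with a mean of at least 1 FPKM or an adjusted p under 0.05 were described in full. Of the related genes, those past 2-fold were named, at most 4 a list, with Serpinh1, Lox, P4ha1 and Sparc always given. CircRNAs with at least 10 reads were given by library. Alternatives were DESeq2 (version 1.42.0), other scalings, no filter, a replicate block and leaving out each library.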

Additional observations from a re-analysis of the deposited data

Results flagged for a closer look

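In 2 collagen circRNAs the difference between genotypes went in opposite directions in separate RNA fractions, with no overlap between the libraries of the genotypes in either fraction. circCol4a5-3 had 3.5 more reads per library in KO than in WT in the nuclear fraction (1 and 2 against 6 and 4 reads) and a difference of -3.5 in total RNA (4 and 4 against 0 and 1). circCol5a1-3 had a KO minus WT difference of 4.5 reads per library in total RNA (1 and 0 against 5 and 5) and of -2.0 in the cytoplasm (2 and 4 against 1 and 1). The share of all circRNAs that do the same was not computed. With edgeR neither circCol4a5-3 in the nucleus (adjusted p = 0.574) nor circCol5a1-3 in total RNA (0.0580) was called. In the other fraction each was too low to test. Scaled for depth, the nuclear KO over WT ratio of circCol4a5-3 was 1.98. The difference between fractions was not tested for either circRNA. The read numbers are small, and the total junction reads differ between the libraries compared.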

How the results depend on the processing

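Under DESeq2, other scalings, no filter, the replicate block and each library left out, 304 of 319 values of the 29 tested collagen genes kept their direction and side of the threshold, 9 lost the call, 5 gained it and 1 reversed. The counts of higher and lower members ranged from 14 to 16 and from 7 to 9 with a library left out. Without the filter, 11 were lower, Col24a1, Col8a2 and Col17a1 being added. The genes handling collagen ranged from 13 to 16 higher and from 9 to 12 lower. All 48 values of the chain ratios kept their direction, but this was fixed in advance. Leaving out gene length or adding the block cannot change the mean log2 difference of a ratio. Because the genotypes did not overlap in any pair, leaving out a library could not turn a sign either. With a library left out the log2 differences ranged from -0.53 to -0.47 for Col1a1/Col1a2, -0.46 to -0.37 for Col4a1/Col4a2 and 0.48 to 0.51 for Col5a1/Col5a2. They ranged from 0.22 to 0.25 for Col6a1/Col6a2, -1.19 to -1.03 for Col6a3/Col6a1 and -0.38 to -0.30 for Col4a5/Col4a6. Xpo4 ranged from 0.10 to 0.34 and was called higher only without KO replicate 2 (0.34, edgeR adjusted p = 0.000252). Signs turned without KO replicate 2 for Col3a1 (0.0050, range from -0.040), Colgalt1 (0.00033, from -0.047), Serpinh1 (-0.0043, up to 0.084), Comp (0.086, from -0.69) and Itga11 (0.056, from -0.14), without WT replicate 1 also for Comp (0.02) and without WT replicate 3 for Itga11 (0.0074), none of them called.

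Calls on circRNAs depended more on the setting. In the cytoplasm, DESeq2 called 1 collagen circRNA higher and 0 lower, no scaling 1 higher, and the fits without a library 1 to 3 higher (1 without WT replicate 2) and 1 to 2 lower (1 without WT replicate 1). In total RNA, library totals in place of TMM called 1 higher (circCol5a1-3) and 2 lower (circCol11a1-1 and circCol4a5-4), as did the replicate block with 1 and 2 (996 and 1058 over all circRNAs), and leaving out a library called 0. Signs turned in total RNA without KO replicate 1 for circCol5a1-4 (-0.13, up to 1.37) and circCol11a1-2 (0.80, from -0.81), and without KO replicate 2 for circCol5a1-1 (0.25, from -0.95). Over all circRNAs, DESeq2 called 376 higher and 77 lower in the cytoplasm, 0 of either in the nucleus and 4 and 4 in total RNA, where library totals called 995 and 1008. In these 3 results the cause was not tested. Same-numbered libraries did not deviate together, with correlations of -0.0811 to 0.0712 in mRNA. For circRNAs the correlations were 0.0237 (nuclear), -0.0361 (cytoplasmic) and 0.0295 (total RNA). The number was therefore not used as a pairing, although these values cannot show whether same-numbered libraries were prepared together. The block raised the lower members to 9 by adding Col17a1 (adjusted p = 0.0368), and changed no other call on a collagen gene.

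The gene lengths used set the level ratios: with the longest coding transcript, an alternative chosen after seeing the data, the WT ratio was 0.696 for Col1a1/Col1a2, 1.13 for Col4a1/Col4a2, 0.591 for Col5a1/Col5a2, 1.96 for Col6a1/Col6a2, 0.445 for Col6a3/Col6a1 and 1.33 for Col4a5/Col4a6. Depth limits the nuclear circRNAs most, with at most 4383 junction reads a library.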
